A study of Mus musculus with 2 samples.

Results

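The Tfh-like nuclei were picked from 2 joint RNA and accessibility libraries of intestinal CD4+ effector T cells, and numbered 160 of 6614 barcodes, 49 of 2391 in the knockout library and 111 of 4223 in the control library. A nucleus was a member if it held 500 to 4000 gene UMIs (unique molecules of RNA), at least 1 UMI over Cd3d, Cd3e and Cd3g, none of Foxp3 or Il10, at least 3 UMIs over Sostdc1, Bcl6, Tox2, Cxcr5 and Gpm6b, and fewer than 3 over Ifng, Tbx21, Il12rb2, Gzma and Nkg7. The comparison population was the other Cd3-positive nuclei in the same depth range, 833 in the knockout library and 1919 in the control library. The knockout library came from CD4creZfp362flox/flox mice and the control library from Zfp362flox/flox mice without the Cre transgene, so both carried the floxed allele and Cre was driven from CD4 regulatory elements. All mice were 26 to 33 weeks old. Cells from colon and small intestine were pooled and sorted as CD4+CD44+CD62L-, with cells positive for CD8a, CD11c, CD45R or F4/80 removed, before nuclei were isolated. The series' design text names 7 mice, and animals within a library are not marked. There was 1 library per genotype, so the effects of genotype and of library cannot be told apart and nothing could be tested over samples. Intervals are therefore 95% intervals of counting error only, and no p-value is given.

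T follicular helper (Tfh) cells are CD4+ T cells that enter B cell follicles and help B cells in germinal centres. BCL6, a transcriptional repressor, directs their differentiation and is opposed by PRDM1 (Blimp-1), and the chemokine receptor CXCR5 brings them into the follicle. PD-1 (Pdcd1), the adaptor SAP (Sh2d1a), ICOS and CD40 ligand carry their contacts with B cells, IL-21 and IL-4 are their best known cytokines, and in the gut such cells are found in Peyer's patches and isolated follicles. Tox and Tox2 are related HMG-box factors that take part in the programme, and PSGL-1 (Selplg), a selectin ligand, is kept low on mouse Tfh cells.

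The stretch of DNA around the start of 3 genes is shown because its accessibility, which the choice of nuclei did not use, was measured in both libraries and, by point value, was higher in Tfh-like nuclei at Bcl6 and Ctla4 and lower at Gzmb. Bcl6 RNA, however, was among the rule's markers. Its promoter was therefore read in nuclei partly chosen for transcripts of the same gene, and is no check on the choice. The promoters run from 250 bases before to 50 bases after a RefSeq gene start (GRCm38.p6, which is mm10), each read 5′ to 3′ on the gene's strand, and were chosen after their values were seen. Of the 25 first promoters of Tfh-list genes that met a shared region, 10 were higher and 5 lower in both libraries by point value. The lower ones included Pdcd1 at −0.22 and −0.77 and Batf at −1.30 (−3.35 to −0.08) and −0.76 (−1.98 to 0.11). The same count over all promoters is not given here, so the tally is a description only. Capitals mark matches, on either strand, to TTCNNNGAA (a letter pattern of STAT and BCL6 sites), TGGAAA (NFAT), TGANTCA (AP-1) and CCACCC (KLF). CTTTGAA (TCF1) and CAGCTG (E-box) were searched too and had no match in these windows.
Bcl6: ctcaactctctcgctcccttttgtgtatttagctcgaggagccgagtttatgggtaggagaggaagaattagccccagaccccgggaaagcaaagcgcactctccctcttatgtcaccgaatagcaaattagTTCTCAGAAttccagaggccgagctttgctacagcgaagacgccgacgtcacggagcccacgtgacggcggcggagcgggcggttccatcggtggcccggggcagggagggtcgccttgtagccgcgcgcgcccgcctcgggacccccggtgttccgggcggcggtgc
Ctla4: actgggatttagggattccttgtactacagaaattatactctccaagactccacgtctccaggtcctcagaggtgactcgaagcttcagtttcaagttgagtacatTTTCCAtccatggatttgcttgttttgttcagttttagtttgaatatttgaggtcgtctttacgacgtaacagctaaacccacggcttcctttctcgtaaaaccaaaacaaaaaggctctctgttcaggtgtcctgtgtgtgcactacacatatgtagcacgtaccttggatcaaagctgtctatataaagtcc
Gzmb: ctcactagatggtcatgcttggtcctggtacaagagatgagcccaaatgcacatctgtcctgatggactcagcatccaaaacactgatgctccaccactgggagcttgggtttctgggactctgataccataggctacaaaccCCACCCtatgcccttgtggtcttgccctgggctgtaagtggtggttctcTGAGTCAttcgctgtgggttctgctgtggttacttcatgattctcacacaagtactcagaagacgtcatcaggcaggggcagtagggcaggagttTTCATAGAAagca
The Bcl6 window lies at chr16:23988803-23989102 on the minus strand, the Ctla4 window at chr1:60908775-60909074 on the plus strand and the Gzmb window at chr14:56262285-56262584 on the minus strand. Of 27025 RefSeq promoters of this length searched, 8.47% held TTCNNNGAA, 21.5% TGGAAA, 7.93% TGANTCA, 30.9% CCACCC, 5.27% CTTTGAA and 16.1% CAGCTG. A match describes letters only.

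The accessible region over the Bcl6 promoter (chr16:23988300-23989198) gave 68.6 CPM (here fragments per 1000000 fragments in shared regions) in Tfh-like nuclei and 48.0 in other Cd3-positive nuclei of the knockout library, from 17 and 174 fragments. In the control library the values were 82.0 and 55.7, from 32 and 329 fragments. The log2 ratios were 0.55 (−0.30 to 1.23) and 0.58 (−0.01 to 1.08), so the promoter was more accessible in the Tfh-like nuclei of both libraries by point value while both intervals held 0. Over the promoter of Ctla4, an inhibitory receptor of activated T cells, Tfh-like nuclei had 36.3 fragment CPM against 21.3 in the knockout library, and 43.6 against 23.2 in the control library. Its log2 ratios were 0.84 (−0.41 to 1.77) and 0.95 (0.09 to 1.64), and only the control interval excluded 0. Over the promoter of Gzmb, the cytotoxic protease granzyme B, the Tfh-like nuclei held 2 fragments in the knockout library, against 56 in other nuclei. In the control library they held 0 fragments, against 110. Set at a floor of 3 fragments, the region was 2.42-fold lower in Tfh-like nuclei. The control interval of the log2 ratio reached up to −0.95, a smaller difference than that floor gives. The knockout log2 ratio at Gzmb was −0.63 (−4.02 to 0.98).

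The libraries held 9348999 UMIs (knockout) and 10803590 UMIs (control). Tfh-like nuclei were deeper than the rest, with medians of 2657 UMIs in the knockout library and 2317 in the control library, against 2107 and 1961 in other Cd3-positive nuclei, and a rule that asks for marker UMIs is met more easily by a deep nucleus. Summed over members, 131996 and 267843 UMIs and 253230 and 398107 fragments stood behind the values below. The libraries shared 11 cell barcodes, none of them a member. Doublets were not called. Zfp362, the targeted zinc finger gene, gave 1 UMI in the knockout and 4 UMIs in the control members, or 7.58 and 14.9 CPM (UMIs per 1000000 UMIs of that population). In other Cd3-positive nuclei it gave 12 and 48 UMIs, a log2 ratio of knockout over control of −0.84 (−1.94 to 0.05). Which part of the gene was deleted is not given in the sources used here, so these few UMIs hardly check the genotype.

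Tfh-like nuclei made up 5.56% of Cd3-positive nuclei in the knockout library (49 of 882, exact interval 4.14% to 7.28%) and 5.47% in the control library (111 of 2030, 4.52% to 6.55%). The intervals overlap almost wholly, so no difference in share was detectable at this depth. Of the nuclei that met every condition but the marker minimum, the share was 10.7% (49 of 460) and 9.76% (111 of 1137). Nuclei with no Cd3 UMI that met the remaining conditions passed the marker minimum in 8.22% of the knockout library (61 of 742) and 4.45% of the control library (62 of 1392). These Cd3-zero nuclei had medians of 1927 and 1833 UMIs and carried the ILC3 marker list at 1449 and 1405 CPM. The marker minimum was thus also met by nuclei without Cd3 UMIs, at a lower rate than among Cd3-positive nuclei in both libraries by point value. With every nucleus thinned to 1000 UMIs before the rule was applied, 1.50% (9 of 602) in the knockout library and 2.08% (30 of 1440) in the control library remained.

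The members were of several kinds by marker. Bcl6 was detected in 40 of 49 knockout members and 82 of 111 control members, Tox2 in 23 and 68, Gpm6b, a membrane proteolipid, in 8 and 31, Cxcr5 in 7 and 26, and Sostdc1, a secreted BMP and WNT antagonist, in 9 and 12. In 22 knockout members and 31 control members, all marker UMIs came from 1 gene, which was Bcl6 in 16 and 17 of them. At least 2 different markers were seen in 55.1% of knockout and 72.1% of control members. Just inside the threshold, 20 knockout and 40 control members held 3 marker UMIs. Just outside it, 40 knockout and 113 control nuclei held 2. These values chose the members and are given as a description.

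Of the defining markers of the label, those that the rule did not use were Pdcd1, Sh2d1a and Il21. Pdcd1, the PD-1 receptor, stood at 159 CPM in Tfh-like nuclei and 72.0 in other Cd3-positive nuclei of the knockout library, and at 235 and 99.4 in the control library. Its log2 ratios were 1.17 (0.41 to 1.81) and 1.25 (0.84 to 1.63). Sh2d1a, which encodes the adaptor SAP, stood at 144 and 78.4 CPM in the knockout library and at 273 and 97.9 in the control library, with log2 ratios of 0.91 (0.10 to 1.57) and 1.48 (1.10 to 1.84). In summed UMIs both were higher in the Tfh-like nuclei of both libraries. With nuclei thinned to 1000 UMIs, Sh2d1a was detected in 10.2% of knockout and 18.9% of control Tfh-like nuclei (24.5% and 34.2% unthinned), against 5.84% and 7.12% of other Cd3-positive nuclei (11.9% and 13.8% unthinned). Cd3-zero nuclei, which should hold little of it, had 1.67% and 2.00% (3.48% and 3.16% unthinned). Thinned Pdcd1 shares were 8.16% and 19.8% in Tfh-like nuclei (24.5% and 32.4% unthinned). They were 6.34% and 8.14% in other Cd3-positive nuclei (10.7% and 14.0% unthinned) and 6.68% and 6.89% in Cd3-zero nuclei (11.3% and 9.85% unthinned). The knockout Pdcd1 interval, 2.27% to 19.6%, thus held the share of the Cd3-zero nuclei, and the knockout Sh2d1a interval, 3.40% to 22.2%, held that of other Cd3-positive nuclei. For neither gene was a difference in the share of nuclei from other Cd3-positive nuclei detectable in the knockout library at this depth. Il21 gave 4 UMIs in 2 knockout members and 1 UMI in 1 control member, against 20 and 42 UMIs in other Cd3-positive nuclei. Its log2 ratios were 1.64 and −0.90, so by point value it was higher in knockout and lower in control members. IL-21, the cytokine most tied to Tfh cells, was therefore almost absent from nuclei of either library, and the label rests on receptors and factors.

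**Figure D1:**
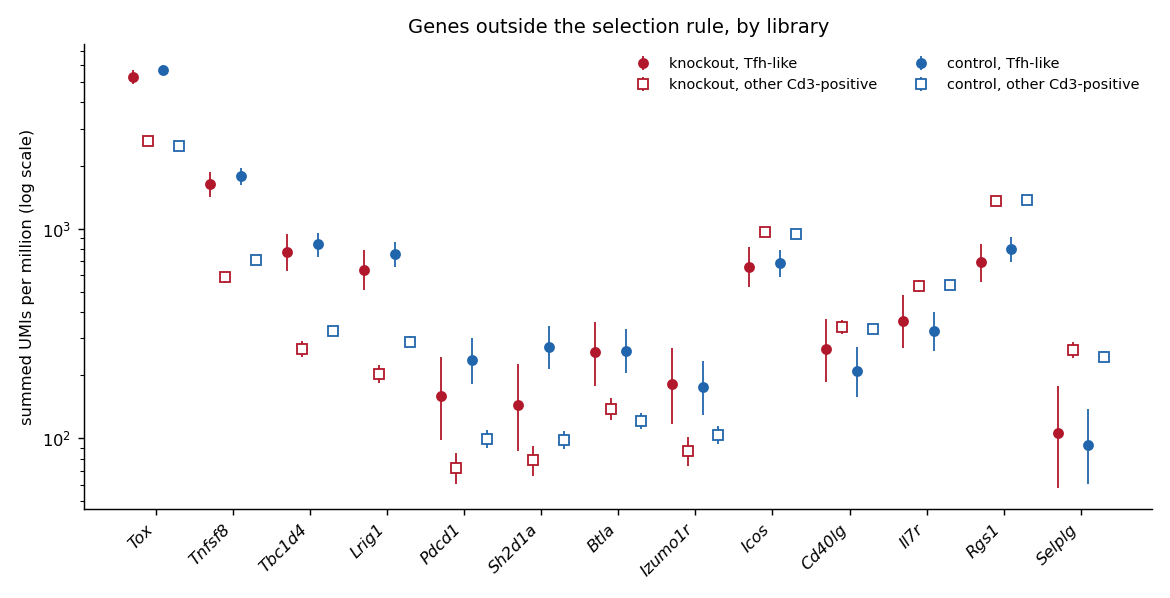
Summed CPM (log axis) of genes outside the selection rule, in Tfh-like nuclei (filled circles) and other Cd3-positive nuclei (open squares) of the knockout (red) and control (blue) libraries, with 95% Poisson intervals. Tox to Izumo1r lie higher in the Tfh-like nuclei of both libraries, and Icos to Selplg lie lower.

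Over all genes outside the rule with at least 5 expected UMIs in the Tfh-like nuclei of each library, 22 of 4095 (0.537%) were at least 2-fold higher in Tfh-like nuclei in both libraries, and 27 (0.659%) at least 2-fold lower. With the rule genes they were 24 of 4107 (0.584%) and 34 (0.828%). Against only nuclei that met every condition but the marker minimum, 18 of 4110 genes outside the rule (0.438%) were higher and 24 (0.584%) lower. The choice of nuclei used RNA of the same contrast, so these counts describe the gate. The 15 named genes on the higher side were Ntrk3, Phactr2, Lrig1, Tbc1d4, Tnfsf8, Sfmbt1, Aff3, Pdcd1, Usp6nl, Arhgef12, Rnaset2a, Tox, Por, Rgs10 and Ece1. Ntrk3, a neurotrophin receptor tyrosine kinase, led them with 152 CPM in Tfh-like nuclei and 43.2 in others of the knockout library, and 220 and 41.0 in the control library. Its log2 ratios were 1.84 (1.03 to 2.53) and 2.44 (1.97 to 2.86), from 13 and 31 members with a UMI. Tnfsf8, the CD30 ligand, reached 1629 and 586 CPM in the knockout library and 1773 and 708 in the control library, log2 ratios of 1.48 (1.26 to 1.69) and 1.33 (1.18 to 1.47). Lrig1, a negative regulator of growth factor receptors, reached 636 and 203 in the knockout library and 754 and 289 in the control library, log2 ratios of 1.66 and 1.39. Tbc1d4, a Rab GTPase activating protein of glucose transporter traffic, reached 773 and 267 in the knockout library and 840 and 324 in the control library, log2 ratios of 1.54 and 1.38. The naming of genes asked for the same direction and for intervals excluding 0 in both libraries, so all 15 named genes meet this by choice. The remaining named genes had log2 ratios between 1.00 and 1.74, apart from Ece1 in the control library at 0.99. Of these 15 genes, 13 passed 2-fold in both libraries, and 7 did so against only nuclei that met every condition but the marker minimum. Among those that did not, Pdcd1 stood at 0.84 (0.04 to 1.52) and 1.19 (0.75 to 1.59) in that comparison, Tnfsf8 at 1.04 and 0.89, and Aff3 at 0.58 and 0.85.

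**Figure D2:**
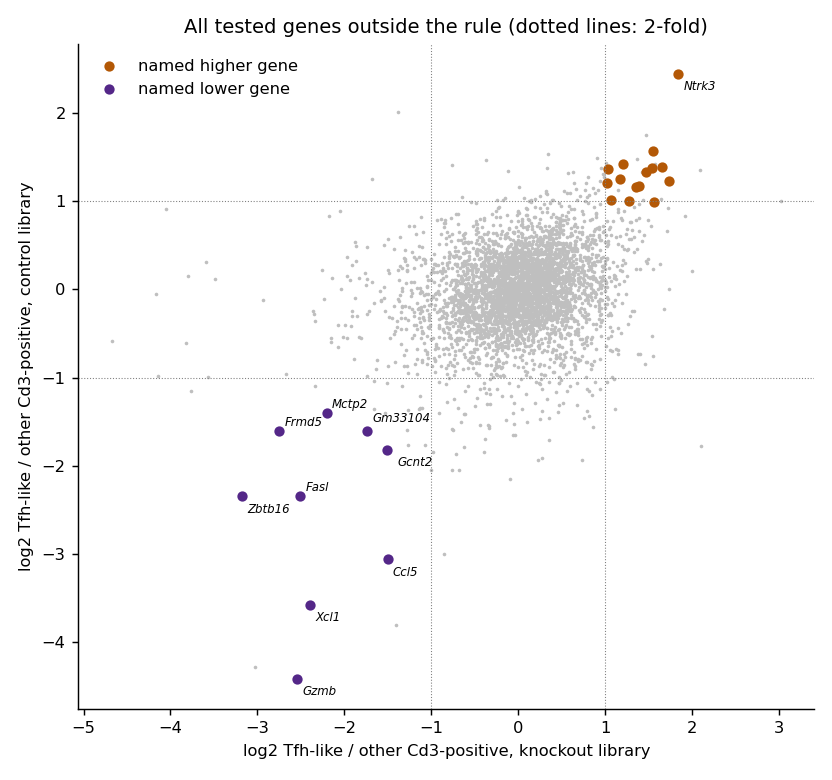
Log2 ratio of Tfh-like over other Cd3-positive nuclei in the knockout library (x axis) and in the control library (y axis) for each tested gene outside the rule, with dotted lines at 2-fold and only Ntrk3 and the named lower genes labelled. Most genes sit in a cloud around 0, Ntrk3 lies at 1.84 and 2.44, and Gzmb at −2.54 and −4.41.

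The 9 named genes on the lower side were Gzmb, Xcl1, Zbtb16, Fasl, Frmd5, Gm33104, Gcnt2, Ccl5 and Mctp2. Several belong to cytotoxic and Th1-type cells, which the rule removes through Gzma, Nkg7 and Ifng, so part of the contrast is set by the choice of nuclei. Zbtb16 (PLZF, the factor of innate-like T cells) had 1 UMI in knockout and 2 UMIs in control Tfh-like nuclei, against 192 and 192 UMIs in other nuclei. Fasl, the death ligand, gave log2 ratios of −2.51 in the knockout library and −2.34 in the control library, and Xcl1, a chemokine, −2.39 and −3.57. Against only those other nuclei that also lacked Foxp3, Il10 and Th1 UMIs past the rule (411 and 1026), Fasl stood at −2.08 and −1.87, Xcl1 at −1.61 and −2.62, and Zbtb16 at −1.82 and −1.77. In the knockout library, Gzmb did not stay lower in that comparison, at 0.14, against −2.18 in the control library. Of the 9 genes, 6 stayed at least 2-fold lower in both libraries there, and Frmd5 stood at −1.41 (−3.19 to −0.26) and −0.22 (−0.78 to 0.26). The 5 knockout Gzmb UMIs sat in 3 members, 1 of which held 60.0% of them.

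Among the listed Tfh factors outside the rule, 6 of the 7 tested were higher in Tfh-like nuclei of both libraries, with median log2 ratios of 0.50 in the knockout library and 0.10 in the control library, against 0.04 and −0.01 over all genes tested. Against only nuclei that met every condition but the marker minimum, the factor medians were 0.47 and 0.30. Of all 4095 genes tested outside the rule, 30.5% were higher and 28.2% lower in both libraries by point value, without regard to intervals, and the counts of higher and lower genes in the lists below are of the same kind. Tox alone passed 2-fold, at 5280 and 2611 CPM in the knockout library and 5731 and 2486 in the control library, log2 ratios of 1.02 (0.90 to 1.13) and 1.21 (1.13 to 1.28). Nfatc1, a calcium-responsive factor, had log2 ratios of 0.50 and 0.45. Maf, which drives IL-21 and IL-4 in Tfh cells, was nearly level at 0.10 (−0.22 to 0.39) and 0.03 (−0.20 to 0.24), and so was Tcf7 (TCF1) at 0.33 (−0.52 to 1.00) and 0.06 (−0.56 to 0.58). Irf4 had 0.56 (−0.29 to 1.25) in the knockout library and −1.15 (−2.22 to −0.35) in the control library. Ascl2 gave no UMI in the Cd3-positive nuclei of either library.

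Of 14 tested receptors and co-signals, 7 were higher and 5 lower in Tfh-like nuclei of both libraries, with medians of 0.18 and 0.36. Against only nuclei that met every condition but the marker minimum, the medians were 0.29 and 0.57, and 0 of these genes were 2-fold higher in both libraries. Btla, an inhibitory receptor of the CD28 family, had log2 ratios of 0.92 (0.34 to 1.42) in the knockout library and 1.12 (0.73 to 1.48) in the control library. Izumo1r, folate receptor 4 on mouse T cells, had 1.09 and 0.77. Il6st, the signalling chain of the IL-6 receptor, had 0.63 (−0.05 to 1.21) and 1.33 (0.94 to 1.68). Tigit and Slamf6 were both at 0.33 in the knockout library, with intervals that held 0, and at 1.37 and 1.08 in the control library. On the lower side, Icos, the costimulator on which Tfh cells depend, stood at 659 CPM in Tfh-like nuclei and 962 in others of the knockout library, and 683 and 943 in the control library. Its log2 ratios were −0.54 (−0.87 to −0.23) and −0.46 (−0.69 to −0.25). Cd40lg, the CD40 ligand, stood at −0.34 (−0.89 to 0.13) and −0.65 (−1.08 to −0.28). Ctla4 RNA was level, at 0.00 and −0.05, although its promoter was more accessible by point value. In summed UMIs, transcripts of PD-1, SAP, BTLA and TOX were therefore higher in Tfh-like nuclei than in other Cd3-positive nuclei of both libraries. Those of ICOS were lower, and no interval of these log2 ratios held 0. In the knockout library, no difference in the thinned share of nuclei with a Pdcd1 or Sh2d1a UMI was detectable. The Sh2d1a ratio against only nuclei that met every other condition is not given here.

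Of 13 tested genes that oppose the Tfh state or guide cells out of the follicle, 8 were lower and 2 higher in both libraries by point value, with medians of −0.40 and −0.48. Against only nuclei that met every condition but the marker minimum the medians were −0.20 and −0.43. Selplg stood at 106 CPM in Tfh-like nuclei and 264 in others of the knockout library, and 93.3 and 245 in the control library, log2 ratios of −1.27 (−2.20 to −0.55) and −1.36 (−2.03 to −0.82). Il7r, the IL-7 receptor, had −0.54 and −0.71, and Id2, an inhibitor of E proteins, −0.73 and −0.30, with intervals below 0. Prdm1 had 10 UMIs in knockout and 7 UMIs in control members, log2 ratios of −0.44 (−1.59 to 0.40) and −1.54 (−2.96 to −0.58). The 2 genes higher in both were Stat5a and Stat5b, at 0.36 and 0.32 in the knockout library and 0.26 and 0.33 in the control library. All 8 tested genes of gut residence were lower in both libraries by point value, with medians of −0.27 and −0.73, or −0.26 and −0.48 against only nuclei that met the other conditions. They included Rgs1, a regulator of chemokine receptor signalling, at −0.97 (−1.30 to −0.68) and −0.78 (−0.99 to −0.59), and Itgb7, the chain of the gut-homing integrin, at −0.47 and −0.77.

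Of the other lists, 6 of 8 tested Th1 genes outside the rule were lower in both libraries and none higher, with medians of −0.51 and −0.46. The rule removes Th1 and Foxp3 nuclei from the members alone, and against only nuclei that met the other conditions the Th1 medians were −0.17 and −0.36. The 7 tested Th17 genes had medians of 0.24 and 0.21, with 3 higher and none lower in both, and 0.01 and −0.10 against nuclei that met the other conditions. The 6 tested Treg genes had medians of 0.17 and 0.23, with 3 higher in both, among them the co-stimulator Tnfrsf9 at 0.36 and 0.49. Against nuclei that met the other conditions the Treg medians were 0.43 and 0.49. The Tfh factors there had 0.47 and 0.30 and the Tfh receptors and co-signals 0.29 and 0.57. The Treg medians thus lay between those of the 2 Tfh lists in each library. The 12 tested genes of activation and anergy had medians of −0.05 and 0.03, with 5 higher and 6 lower in both. Nr4a3, an immediate target of antigen receptor signalling, was higher at 0.63 and 0.47. The 5 tested Th2 genes had medians of 0.44 and −0.01, the 7 tested naive and memory genes −0.24 and −0.11, and of the 4 tested interferon genes 1 was higher and 2 lower in both. The 2 tested cell cycle genes had medians of 0.37 and −0.27.

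Several of these genes were already higher below the threshold, in nuclei with 1 or 2 marker UMIs, than in nuclei with 0. Among nuclei that met every other condition, Tbc1d4 ran at 300.1, 403, 403, 616 and 885 CPM at 0, 1, 2, 3 and at least 4 marker UMIs in the knockout library, and at 349, 466, 662, 575 and 1009.6 in the control library. Lrig1 ran at 212, 288, 446, 507 and 729 in the knockout library and 276, 339.6, 543, 747 and 759 in the control library. Selplg ran the other way, from 235 at 0 marker UMIs to 78.1 at 4 or more in the knockout library and from 236 to 85.7 in the control library. The nuclei also grew deeper along this series, with medians from 2028 to 2612 UMIs in the knockout library and from 1878 to 2282 UMIs in the control library, and the part of depth was not tested. Pdcd1 and Sh2d1a were highest at 4 or more marker UMIs in the control library, at 288 and 337 CPM. In the knockout library they were at 104 and 104 in the 29 nuclei with 4 or more marker UMIs. These levels were below the 236 and 199 of the 20 nuclei with 3, from few UMIs and with overlapping intervals. The 253 knockout nuclei with no marker UMI stood at 91.7 and 93.7, within the intervals of the nuclei with 4 or more.

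**Figure D3:**
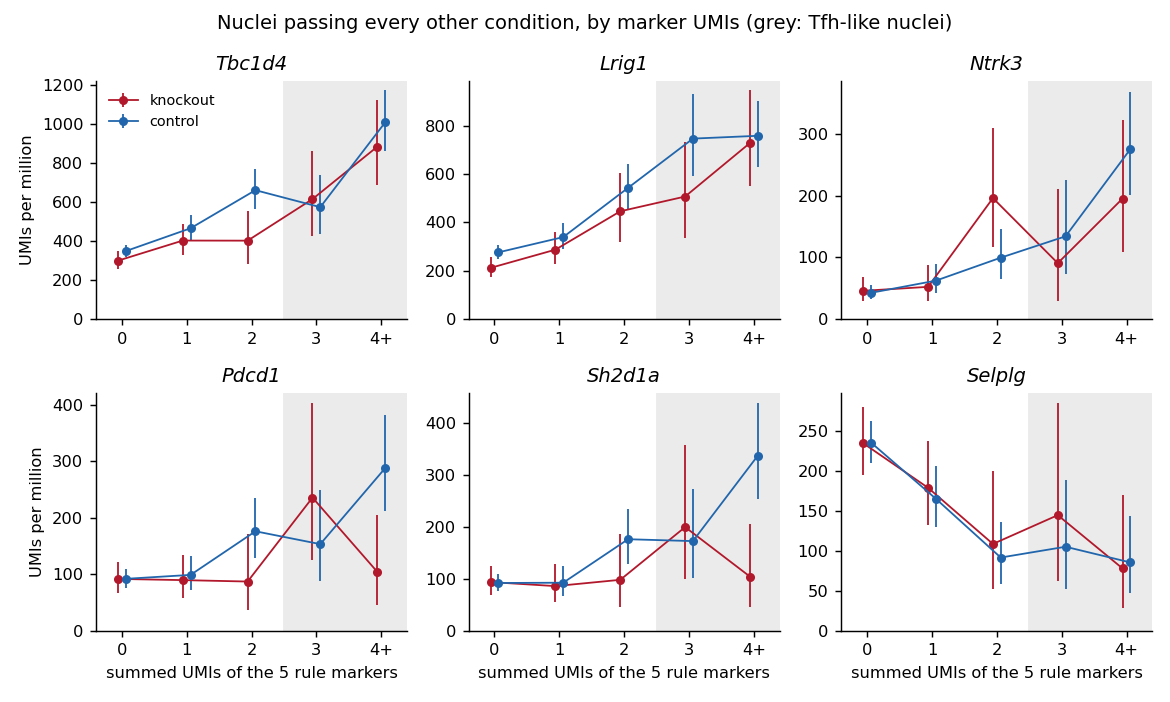
CPM of 6 genes (y axis) by the number of marker UMIs per nucleus (x axis, 0 to at least 4) among nuclei that met every other condition, for knockout (red) and control (blue), with 95% Poisson intervals and the Tfh-like range shaded. Tbc1d4 and Lrig1 lie highest at 4 or more marker UMIs and Selplg lies highest at 0 in both libraries.

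Members with a UMI of Sostdc1, itself a marker of the rule, differed from the other members in the summed levels of some genes. In the 9 such knockout members and 12 such control members, Tbc1d4 was at 1451 and 1780 CPM, against 610.3 and 729.9 in the members without Sostdc1. Il1r2, the decoy receptor of IL-1, was at 432 and 463, against 56.3 and 91.8. Sh2d1a was at 314 and 712, against 103 and 221, and Btla at 667 and 569.7, against 159.6 and 225. Icos was lower, at 432 and 249, against 714 and 734, and Selplg gave no UMI in these nuclei. Not every receptor was higher in the nuclei with Sostdc1, as Tigit was at 157 and 178 CPM, against 84.5 and 204, and Ctla4 at 1530 and 1674, against 1615 and 1502. Maf was at 588 and 926, against 770 and 688. Pdcd1 was at 235 and 427, against 141 and 213, with overlapping intervals in both libraries. The nuclei were few, and the knockout intervals of Sh2d1a and of Icos overlapped. For Selplg the intervals overlapped in both libraries. Its upper limits in the nuclei with Sostdc1 were 145 and 131 CPM, against levels of 131 and 104 CPM in the members without Sostdc1. Members with at least 2 markers also exceeded those with 1 in Tnfsf8, at 2184 against 946 CPM in the knockout library and 2066 against 1038 in the control library, and in Ntrk3, at 261 against 16.9 and 261 against 118. The 16.9 rested on 1 UMI, and the control intervals of Ntrk3 overlapped. Other genes were not higher in both libraries, as Lrig1 was at 618 against 659 and 793 against 657. Ctla4 was at 1195 against 2095 and 1601 against 1313.

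Accessibility near genes was summed over the regions, shared by both libraries, within 50 kb of a gene. Near the 36 genes of the Tfh lists the Tfh-like nuclei had log2 ratios over other nuclei of 0.19 (0.13 to 0.26) in the knockout library and 0.09 (0.03 to 0.14) in the control library. Of these 36 loci, 20 were more accessible in both libraries and 2 less, or 55.6% and 5.56%, against 26.2% and 28.7% of the 4069 loci of genes tested in RNA. The lists hold 4 genes whose RNA chose the members, and without them the ratios were 0.18 (0.11 to 0.25) and 0.08 (0.02 to 0.13), with 17 of 32 loci more and 2 less accessible in both. Near the 15 genes named as higher in RNA, 12 loci were more and 1 less accessible in both, with medians of 0.32 and 0.23. Near the 9 genes named as lower in RNA, 8 loci were less and 1 more accessible, with medians of −0.18 and −0.36. The RNA and accessibility of 1 nucleus come from the same barcode, so these are 2 readouts of the same nuclei and not independent samples.

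Around Pdcd1 (chr1:94038305-94052553, minus strand) the Tfh-like nuclei had 72 fragments in the knockout library and 101 in the control library, log2 ratios of 0.60 (0.22 to 0.94) and 0.36 (0.05 to 0.65). An intergenic region beside it, chr1:94034858-94035864, gave 0.93 (0.39 to 1.40) and 0.21 (−0.34 to 0.68). Gpm6b, whose RNA the rule used, had 13 and 24 fragments around it and log2 ratios of 1.09 (0.08 to 1.89) and 1.34 (0.63 to 1.94), while the loci of Bcl6 and Tox2 were at 0.34 and 0.38 in the knockout library and 0.24 and 0.14 in the control library. Around Tox (chr4:6686353-6991557) the ratios were 0.64 (0.34 to 0.93) and 0.42 (0.18 to 0.65), and around Il6ra, the IL-6 receptor, 0.49 (0.10 to 0.85) and 0.40 (0.10 to 0.68). The Cxcr5 locus as a whole was close to level, at 0.20 (−0.09 to 0.47) and 0.17 (−0.06 to 0.39). A region annotated as a Cxcr5 promoter, chr9:44526236-44527267, which lies 35125 bases from the gene's outermost start, was higher, with 64.6 fragment CPM in Tfh-like nuclei and 26.0 in others of the knockout library, and 56.4 and 32.5 in the control library. The log2 ratios there were 1.35 (0.45 to 2.09) and 0.82 (0.09 to 1.43). A second such region, 1192 bases from that start, held 3 fragments in knockout and 7 in control Tfh-like nuclei, at 1.39 (−1.19 to 2.97) and 1.68 (0.18 to 2.79).

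High ratios were also found at loci whose RNA was barely detected. Around Pou2af1 (OCA-B, a coactivator of octamer factors in B cells and Tfh cells) the log2 ratios were 2.49 (1.81 to 3.10) in the knockout library and 0.88 (0.20 to 1.46) in the control library, from 30 and 25 fragments in 20 and 21 members. Pou2af1 RNA gave 2 UMIs in 2 members of each library, against 1 and 4 UMIs in other nuclei. Around Cd200, a ligand carried by Tfh cells, the log2 ratios were 1.42 (0.35 to 2.26) and 1.08 (0.30 to 1.73), from 12 and 20 fragments, while its RNA gave 1 and 3 UMIs. The B cell markers summed to 30.3 CPM in knockout and 48.5 in control Tfh-like nuclei, against 36.8 and 43.2 in other Cd3-positive nuclei. Of the 7 B cell markers, Cd79b, Ms4a1, Pax5, Ebf1 and Bank1 were at 0 in the knockout members and Cd79a, Pax5 and Bank1 at 0 in the control members. Sh2d1a went against its RNA, with fewer fragments in Tfh-like nuclei of both libraries, 3 and 11, log2 ratios of −1.25 (−3.76 to 0.12) and −0.37 (−1.45 to 0.44).

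On the lower side, the locus of Prdm1 stood at −0.18 (−0.58 to 0.18) in the knockout library and −0.67 (−1.04 to −0.34) in the control library. Runx3, the factor of cytotoxic and resident T cells, stood at −0.45 (−0.79 to −0.15) and −0.23 (−0.47 to 0.00), and Mctp2 at −1.47 (−2.78 to −0.56) and −0.71 (−1.43 to −0.13). At the Selplg promoter, region chr5:113832318-113833242, the Tfh-like nuclei held 2 fragments in the knockout library and 6 in the control library, against 128 and 198, log2 ratios of −1.81 (−5.19 to −0.25) and −1.01 (−2.59 to 0.02). Of single regions with at least 5 expected fragments in each library, 7 of 13163 (0.0532%) were at least 2-fold more accessible in both libraries and 43 (0.327%) at least 2-fold less. The highest of them by the smaller ratio was an intergenic region on chromosome 12, chr12:69422555-69423511, at 1.30 and 1.15. Another lay 4778 bases from the start of Cx3cr1, a chemokine receptor, at 1.04 and 1.05, and another near Cd83, an activation marker, at 1.24 and 1.02. With few fragments behind each region, single regions say less than the summed loci.

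**Figure D4:**
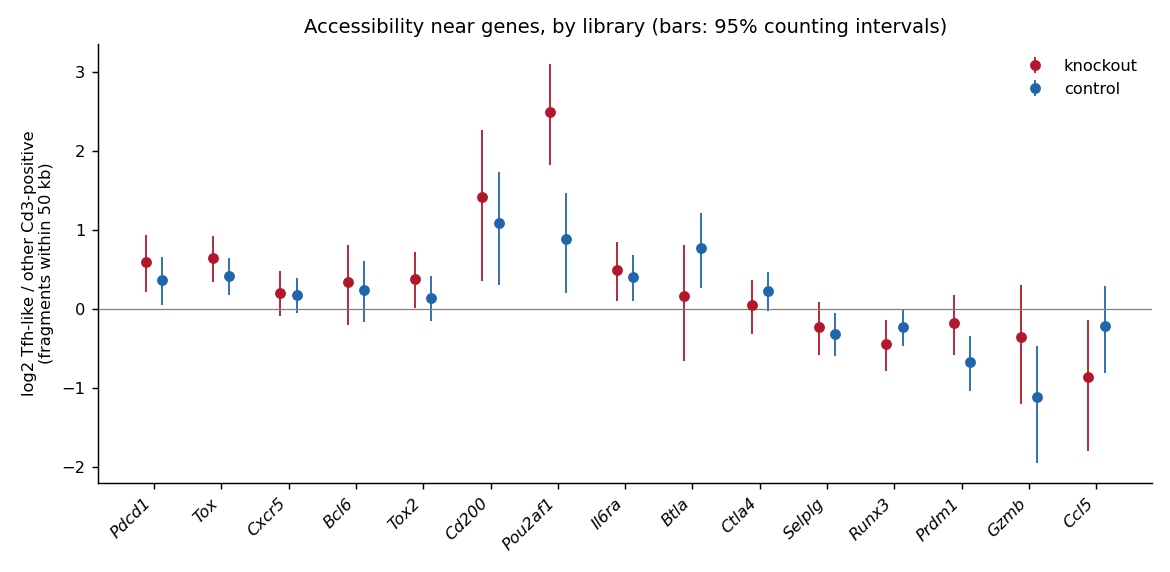
Log2 ratio of fragments within 50 kb of a gene, Tfh-like over other Cd3-positive nuclei, in the knockout (red) and control (blue) libraries, with 95% counting intervals. Pou2af1, Cd200, Pdcd1, Tox and Il6ra lie above 0 in both libraries with intervals that exclude it, and Selplg, Runx3, Prdm1, Gzmb and Ccl5 lie below 0.

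Between genotypes, most of the main genes of the gate did not differ beyond counting error. Tox was at 5280 CPM in knockout and 5731 in control Tfh-like nuclei, a log2 ratio of −0.12 (−0.25 to 0.01), Tnfsf8 at −0.12 (−0.36 to 0.11), Tbc1d4 at −0.12 (−0.47 to 0.22), Btla at −0.01 (−0.66 to 0.59) and Pdcd1 at −0.54 (−1.35 to 0.17). Sh2d1a was lower in the knockout, at 144 CPM against 273 in the control, −0.89 (−1.73 to −0.18). It was also lower in the other Cd3-positive nuclei of the knockout library, by a log2 ratio of −0.32 (−0.60 to −0.04). Tigit, an inhibitory receptor, had −0.99 (−2.03 to −0.14) in Tfh-like nuclei and 0.04 in the others. Accessibility summed near the Tfh lists gave a log2 ratio of 0.07 (−0.01 to 0.16) between genotypes. Of the 36 loci, 2 were higher in the knockout with an interval above 0, Lag3 at 0.71 (0.36 to 1.05) and Pou2af1 at 0.91 (0.10 to 1.74), and 2 were lower, Icos at −0.83 (−1.41 to −0.29) and Il4 at −0.57 (−1.19 to −0.01). In other Cd3-positive nuclei the same loci stood at 0.76, −0.69, −0.28 and −0.03. A count of such intervals over all loci is not given here, so the named loci are a description only.

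Of 3539 genes with at least 20 UMIs over both groups of Tfh-like nuclei, 177 (5.00%) were at least 2-fold higher in the knockout and 147 (4.15%) at least 2-fold lower. The same genes in the far larger population of other Cd3-positive nuclei passed 2-fold in 7 (0.198%) and 5 (0.141%) cases. A member sum of 131996 UMIs moves past 2-fold by counting error more easily than 1875788, so these shares cannot be set against each other as a difference in response. The list medians were near 0 for the Tfh factors (0.12 over 9 genes) and the receptors and co-signals (−0.05 over 15 genes). Cd4 itself stood apart, with 970 CPM in knockout and 273 in control Tfh-like nuclei, a log2 ratio of 1.83 (1.41 to 2.27). It was 1.54 in the other Cd3-positive nuclei, so both populations showed it.

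The named genes on the higher side were Tbc1d9b, Timm23, Cd4, Eif4e, Tiparp, Srp72, Klhl2, Txndc11, Txnl1 and Apbb1ip. Eif4e, the cap-binding translation factor, had 174 and 48.5 CPM in knockout and control, a log2 ratio of 1.82 (0.80 to 2.95). Tiparp, a target of the aryl hydrocarbon receptor, had 508 and 183, or 1.47 (0.92 to 2.03). On the lower side were Atg10, Sptlc2, Cxcl10, Akr1b3, Lrp10, Frmd5, Mkrn1, Tceal9, Fhit and Cpsf6. Cpsf6, a factor of 3′ end processing, had 106 and 321 CPM, or −1.56 (−2.53 to −0.77), and Cxcl10, an interferon-induced chemokine, 30.3 and 131, or −1.96 (−4.06 to −0.62). In the other Cd3-positive nuclei these genes, Cd4 apart, had log2 ratios between −0.57 (Frmd5) and 0.46 (Tbc1d9b). The genes were chosen for extreme ratios in Tfh-like nuclei, so smaller ratios in the others do not show a response particular to the gate.

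**Figure D5:**
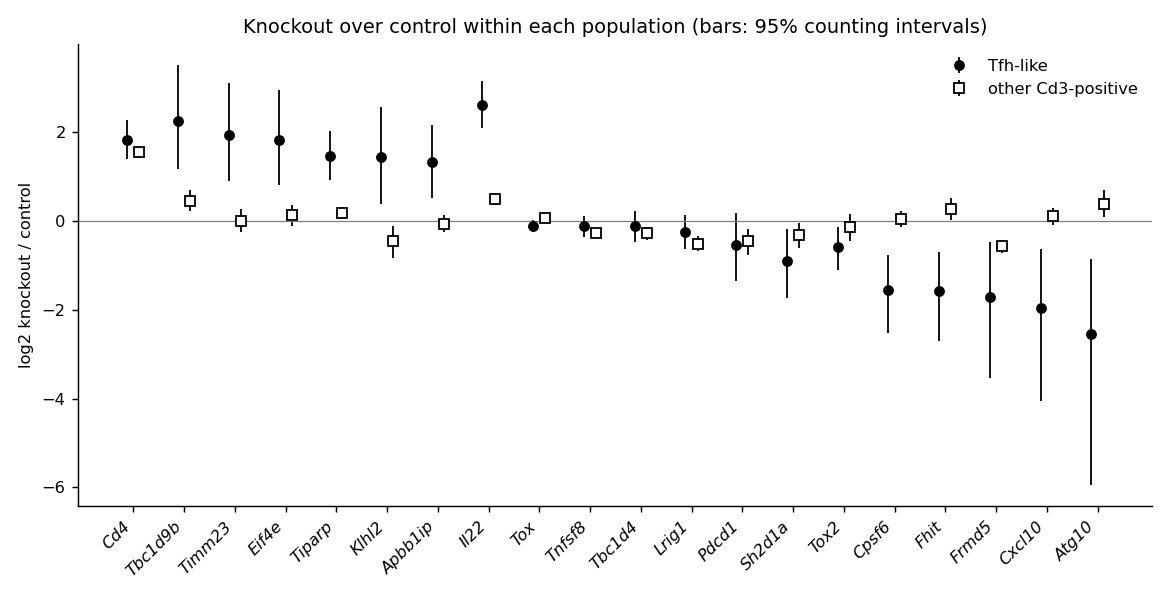
Log2 ratio of knockout over control (y axis) within Tfh-like nuclei (filled circles) and within other Cd3-positive nuclei (open squares), with 95% counting intervals, for named genes and the main genes of the gate. Cd4 is high in both populations, and the intervals of the Tfh-like nuclei are wide. In Tfh-like nuclei, Tox, Tnfsf8 and Tbc1d4 lie near 0, while Pdcd1 and Sh2d1a lie lower, Sh2d1a with an interval that excludes 0.

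Cytokine transcripts differed more between the libraries, and each rested on a few nuclei. Il22, the epithelial repair cytokine of Th17-type and innate cells, gave 127 UMIs in 10 knockout members and 42 UMIs in 14 control members, a log2 ratio of 2.61 (2.10 to 3.16). In other Cd3-positive nuclei it was 0.50. Il4 gave 23 UMIs in 6 knockout members, 1 of which held 47.8% of them, and 5 UMIs in 4 control members. Il17a gave 23 UMIs in 2 knockout members, 95.7% in 1 of them, and 9 UMIs in 3 control members. Il5, a type 2 cytokine, gave 21 UMIs in 2 knockout members and none in the control, and Csf2 (GM-CSF) 37 UMIs in 3 knockout members and 15 UMIs in 1 control member. All but 2 of the 37 knockout Csf2 UMIs, and all 15 control ones, lay in members with 1 marker gene. Cytokines of other helper types thus came from a few nuclei of the gate, and their sums do not describe the typical member.

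Markers of other cells in the gate were as follows, for knockout and control Tfh-like nuclei against knockout and control other Cd3-positive nuclei, in CPM. The ILC3 list summed to 348 and 235 against 192 and 187, with Arg1 at 0 in the members of both libraries and Ncr1 at 0 in those of the knockout. The dendritic or myeloid list summed to 280 and 609 against 424 and 382, with Itgax, Flt3 and Csf1r at 0 in the members of both. Most of it was Cd74, the invariant chain, at 197 in knockout and 422 in control members. The epithelial list summed to 60.6 and 33.6 against 137 and 50.1, with Krt8, Vil1 and Cdh1 at 0 in the members of both. The plasma cell list summed to 37.9 and 14.9 against 35.2 and 21.0, and the gamma-delta T list to 15.2 and 7.47 against 22.4 and 12.8. Cd8a was at 0 in all Cd3-positive nuclei in the depth range. The part of these lists in the results above was not tested.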

How the data were processed

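The authors' deposited matrices hold raw counts for 1 knockout and 1 control library. They were made with Cell Ranger ARC 2.0.1 on mm10, per the submitters' processing notes. Gene rows are UMI counts, and peaks were called in each library separately (85738 and 83851). Peak counts were even in 90.7% and 91.7% of values, so each value was halved and rounded up to give fragments per nucleus and peak. Peaks of both libraries that overlapped by at least 1 base were merged into 73219 shared regions. The sources used here do not give filters applied before deposit.

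The rule was applied to raw UMIs, counts were summed per library and population, and log2 ratios of CPM used a pseudocount of 0.5 with an exact conditional interval. Genes and regions needed 5 expected UMIs or fragments in the Tfh-like nuclei of each library, or, between genotypes, 20 UMIs. The rule for named genes took the 15 highest and 10 lowest by the smaller ratio, with both intervals excluding 0 and no nucleus over 20% of the UMIs on the higher side. Between genotypes it took the 10 highest and 10 lowest with at least 30 UMIs. Of the 10 lowest, 1 is not reported here. Genes of the lists could be named as well. Members and lists were chosen with earlier results of these data known. Gene positions are those of the GENCODE annotation of mm10. No doublet caller was run. Thinning drew 1000 UMIs per nucleus. Intervals and ratios were tried on simulated Poisson counts, the model that the intervals assume. These counts held no spread between nuclei, so they do not show how the intervals behave where 1 nucleus holds many UMIs of a gene. Python 3.11.15, numpy 2.4.6, scipy 1.17.1 and pandas 2.3.3 were used.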

Additional observations from a re-analysis of the deposited data

Results flagged for a closer look

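These 7 results are given because their direction over other Cd3-positive nuclei was opposite in the libraries, and the differences were not tested. As log2 ratios in the knockout and the control library, Il22 stood at 1.38 and −0.73, Il4 at 2.11 and −1.78, Timm23 at 0.88 and −1.05, Txnl1 at 0.84 and −0.85, Cpsf6 at −0.84 and 0.75, Atg10 at −2.04 and 0.89, and H2-Aa, a class II histocompatibility gene, at −1.68 and 1.24. The H2-Aa UMIs of the control library, 24 in all, sat in 5 members.

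These 4 genes had opposite knockout over control log2 ratios in Tfh-like and in other Cd3-positive nuclei, and the differences were not tested. Klhl2 stood at 1.45 and −0.46, Txnl1 at 1.37 and −0.32, Fhit at −1.57 and 0.26, and Atg10 at −2.54 and 0.39. The last rested on 2 UMIs in the knockout and 29 UMIs in the control members.

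Nuclei with no Cd3 UMI, which stand outside the comparisons, passed the marker minimum in 8.22% of cases in the knockout library and 4.45% in the control library.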

How the results depend on the processing

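No paired analysis was possible because each genotype has 1 library. The share of Tfh-like nuclei in the knockout and control libraries was 10.1% and 11.0% at a marker minimum of 2, 3.29% and 3.50% at 4, and 1.50% and 2.08% after thinning to 1000 UMIs. Genes 2-fold higher and lower than other nuclei in both libraries, rule genes included, numbered 24 and 34. They were 6 and 15 from 20 expected UMIs, 2876 and 200 with almost no filter, and 14 and 24 after thinning, which shared 9 and 16 genes with the reported calls. Between genotypes, 177 higher and 147 lower genes became 28 and 20 from 50 UMIs, 2911 and 1700 from 1 UMI, and 73 and 93 after thinning. Single regions, 7 higher and 43 lower, became 0 and 3 from 10 expected fragments, and 0 and 12 for members with at least 2 markers. Within 10 kb, the knockout ratio near the Tfh lists was 0.29. Against only nuclei that met every other condition, 20 and 24 genes were called, of which 15 and 12 were shared, Gzmb (0.14) turned round in the knockout library, and 11 of 66 single-gene values moved. Fewer features pass a stricter minimum by construction, and for the rest the cause was not tested. Depth limits every comparison between genotypes to differences well above counting error, since 49 and 111 nuclei stand behind it.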
